A study of Sus scrofa with 12 samples.

Results

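The cytosolic ribosomal protein genes are described here in pools of Day 9 pig embryos. Members were the probes whose single platform gene symbol begins RPL or RPS followed by a digit, or RPLP0 to RPLP2, or is RPSA, with the RPS6K kinases left out. The rule took 90 of 43769 probes, which is 53 of 11906 named genes, with 30 genes of the large subunit (RPL) and 23 of the small subunit (RPS). Of the 53 genes, 31 had 1 probe and 22 had more, up to 6 for RPL13A. The rule fits 84 symbols of the pig RefSeq annotation, and the 31 without a probe among those used were not analysed here. The symbol rule also takes 6 genes that are not ordinary subunit components: RPL7L1 (a nucleolar relative of RPL7), RPS19BP1 (a protein that binds RPS19), and the paralogues RPL10L, RPL26L1, RPL36AL and RPS27L.

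Cytosolic ribosomes carry out protein synthesis outside the mitochondria, and each consists of a small subunit, which reads the messenger RNA, and a large subunit, which forms peptide bonds. Ribosomal protein messenger RNAs are abundant in growing cells, and in vertebrates most begin with a terminal oligopyrimidine tract through which their translation follows nutrient and growth signals. Before implantation the pig embryo grows from a sphere towards an elongated conceptus, a phase of high demand for protein synthesis. The roles given below are those known from human or yeast ribosomes.

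The study compared embryos of primiparous sows, all brought into oestrus during lactation. FE sows were inseminated at that lactational oestrus, and SE sows (Skip-a-Heat) at the next one. There were 3 sows per group, and 5 male or 5 female embryos of a sow, sexed by PCR, were pooled, which gave 12 pools. Amplified RNA of an FE and an SE pool was hybridised together on two-colour Agilent arrays, 3 sets per sex, and each set had a second array with dyes exchanged. The labels do not name the breed or tie a set to particular sows. Each set is therefore 1 comparison of FE with SE material of 1 sex, and sets are the replicates (n = 3 per sex). Each sow gave embryos of both sexes, so the 6 sets are not 6 independent comparisons. Over all 6, intervals may be too narrow and p-values too small. Male and female material never shared an array. Male sets 1 and 2 lay on slide 1, female sets 1 and 2 on slide 2, and both sets numbered 3 on slide 3.

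The deposited values are log ratios, read as log2 from their range of -4.99 to 5.97, and all ratios below are log2 values on the sign of the first arrays, with the swap arrays turned. Which treatment is the numerator is not settled, since the labels put FE in Cy3 on all 12 arrays although each second array is a dye swap. No direction from FE to SE is therefore given, and turning all signs would turn every value. Over all probes the first and swap arrays as deposited correlated negatively in every set, with r from -0.77 in female set 3 to -0.15 in male set 1. Over the 90 member probes r was -0.89 in female set 3, -0.73 in male set 3 and -0.48 in female set 2. In the other sets it was positive, at 0.38 in female set 1, 0.23 in male set 1 and 0.05 in male set 2. For these genes the turned arrays of a set thus had a like pattern in only 3 of the 6 sets. The files hold ratios only, so levels of the genes, of marker genes of the embryo's cell types and of other tissues could not be checked. In such pools fewer cells of a type and less RNA per cell cannot be told apart.

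No ribosomal protein gene differed between FE and SE embryos past an adjusted p of 0.05. This held for the mean of both sexes (0 of 53 genes, beside 0% of all genes, limma with Benjamini-Hochberg adjustment), and likewise for males, females and the difference between the sexes. The smallest adjusted p among the 53 genes was 0.949 for both sexes. At an unadjusted p under 0.05, 2 of 53 genes passed for both sexes beside 5.06% of all genes. Of the 53 genes, 26 had a positive and 27 a negative mean ratio, with a median of -0.0081 beside -0.0090 over all genes.

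RPS24, a small-subunit protein needed for maturation of the small-subunit ribosomal RNA, had the smallest p for both sexes. Its ratio was 0.64, 0.46 and 0.35 in male sets 1 to 3 and -0.14, 1.55 and 1.16 in female sets 1 to 3. It was positive in 5 of 6 sets, and the male values lay inside the range of the female ones. The mean was 0.67 ± 0.60 (SD, n = 6 sets, 95% confidence interval 0.16 to 1.18, limma adjusted p = 0.949). Its 3 probes gave means of 0.52, 0.58 and 0.91 and all were lowest in female set 1 or male set 3. RPL4, a large-subunit protein of the peptide exit tunnel, was at 0.09, 0.10 and 0.77 in males and at 0.0063, 0.60 and 0.66 in females. It was thus positive in all 6 sets, near 0 in 3 of them, with a mean of 0.37 ± 0.34 (adjusted p = 0.949). On the turned swap arrays alone its mean was -0.17.

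RPL4 was 1 of 3 genes with the same sign in all 6 sets, beside 3.7% of all genes. The others were RPL14, a surface protein of the large subunit, and RPS13, a protein of the small subunit's platform. The RPL14 ratio was -0.16, -0.03 and -0.55 in males and -0.02, -0.21 and -0.17 in females. Its mean was -0.19 ± 0.19 (adjusted p = 0.956). The RPS13 ratio was -0.37, -0.13 and -0.17 in males and -0.0017, -0.04 and -0.68 in females, with a mean of -0.23 ± 0.26 (95% confidence interval -0.48 to 0.01). Both were within 0.05 of 0 in 1 set or more. RPS27L, the p53-inducible paralogue of RPS27, followed with a mean of 0.16 ± 0.16 and was positive in 5 of 6 sets.

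Within males, 2 of 53 genes had an unadjusted p under 0.05 beside 2.91% of all genes, and within females 3 of 53 beside 4.66%. RPL30, a large-subunit protein that in yeast also binds its own transcript, was on both lists with opposite signs. Its ratio in males was -0.17, -0.23 and -0.61, and in females 0.41, 0.12 and 0.49. The 2 groups of sets did not overlap. The male mean was -0.34 ± 0.24 (SD, n = 3) and the female mean 0.34 ± 0.20. Their difference was -0.67 (95% confidence interval -1.08 to -0.27, adjusted p = 0.999). Its 3 probes, which correlated at 0.94 or more over the sets, were all negative in the 3 male sets. Of the 3 probes, 1 was also negative, at -0.16, in female set 2.

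RPSA, a small-subunit protein that also serves as laminin receptor precursor, was the other gene on the male list, at -0.16, -0.07 and -0.41 (mean -0.21 ± 0.17). In females it was at 0.08, -0.08 and 0.07, and the groups overlapped. On the first arrays alone its male mean was 0.36. RPS23, a decoding-centre protein, was at -0.55, 0.01 and -1.68 in males, where male set 3 was far lower than the others, and its male mean was -0.74 ± 0.86. RPL14 and RPL36 completed the 5 smallest male p-values. RPL36, a surface protein of the large subunit, was at -0.10, -0.40 and -1.83 in males, again lowest in male set 3, with a mean of -0.78 ± 0.92, and the male mean of RPL14 was -0.25 ± 0.27. Without male set 3 the male means moved to -0.25 for RPL36, -0.27 for RPS23, -0.096 for RPL14, -0.12 for RPSA and -0.20 for RPL30. All 5 were nearer to 0 without that set.

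On the female side RPS29, a zinc-binding small-subunit protein, had the smallest p. It was at -0.49, -0.10 and -0.47 in females and at 0.09, -0.10 and 0.24 in males. The female mean was -0.35 ± 0.22 (adjusted p = 0.999), and female set 2 and male set 2 lay together at -0.10. RPS24 was the third on the female list, at 0.86 ± 0.89, and RPS28 and RPL4 came next at 0.67 ± 0.49 and 0.42 ± 0.36. The female RPS24 mean was 1.36 without female set 1 and 0.51 without female set 2.

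The difference between male and female ratios had an unadjusted p under 0.05 in 4 of 53 genes beside 2.1% of all genes, and none passed after adjustment. Beside RPL30 these were RPS10, RPS28 and RPS29. RPS10, a protein near the messenger RNA entry of the small subunit, was at -0.23, -0.0044 and -1.0 in males and 0.37, 0.06 and 1.01 in females. The groups did not overlap, and the difference was -0.89 (95% confidence interval -1.71 to -0.07, adjusted p = 0.999). On the turned swap arrays alone they did overlap, with male set 2 at -0.34 and female set 2 at -0.54. Only RPL30 and RPS10 had every male set below every female set, which was 2 of 53 genes beside 3.54% of all genes. RPS28, at the messenger RNA exit, differed by -1.05 with overlapping sets, and RPS29 by 0.42. RPS23 had the next smallest p, with a difference of -1.01. Without male set 3 the difference was -0.60 for RPS10, -0.66 for RPS28 and -0.54 for RPS23.

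Slide and sex were partly the same thing in this layout, since a male and a female set shared only slide 3. On slide 3 alone male minus female was -1.10 for RPL30, -2.01 for RPS10, -1.35 for RPS28, 0.71 for RPS29 and -1.44 for RPS23. Slide 3 thus had the direction of the mean over all sets for each of these 5 genes, and a larger difference. The genes were named for their difference over all sets, which include both sets of slide 3. The shared direction is therefore no separate check on slide or sex. Slides 1 and 2 each held 1 sex and gave no within-slide value.

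**Figure D1:**
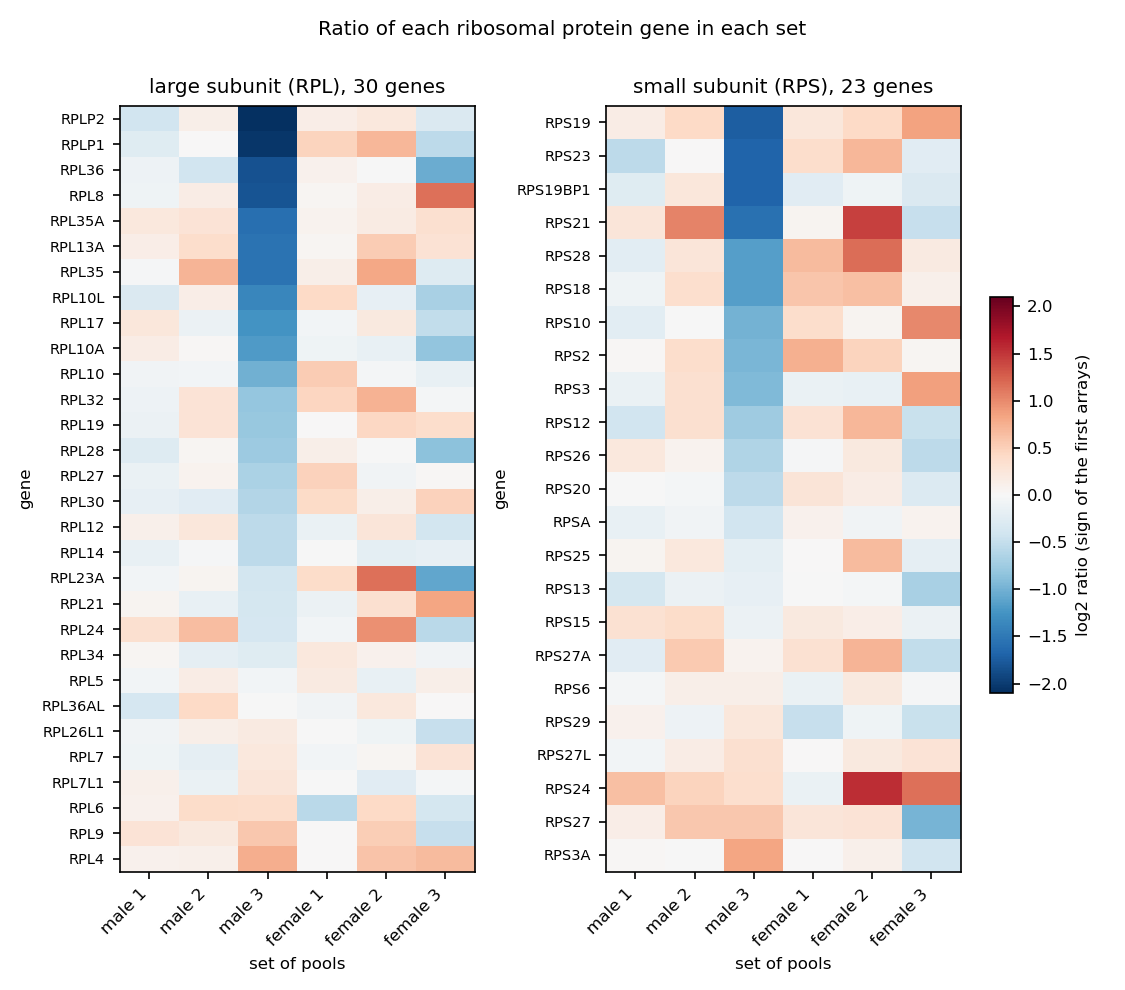
Heat map of the log2 ratio of each of the 53 ribosomal protein genes (vertical) in each of the 6 sets of pools (horizontal), large subunit left and small subunit right, sorted by the ratio in male set 3. Blue is negative and red positive on the sign of the first arrays. The dark blue blocks are all in male set 3, where RPLP2 is at -2.09, and that column also holds RPS3A at 0.83.

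The 6 sets differed from each other in most of these genes. A moderated F test across the 6 sets passed an adjusted p of 0.05 for 46 of 53 genes (86.8%) beside 40.9% of all genes. It weighs differences between sets against those between the 2 arrays of a set, less the array difference shared by all sets. A term for array role took out that shared part. Without the term 27 genes passed, beside 23.5% of all genes. The test compares these sets of pools, not the treatments, and its error is the remaining difference between arrays of the same RNA. With the term, the test passed for 26 of 30 large-subunit and 20 of 23 small-subunit genes. The median F was 24.6 beside 2.94 over all genes, and the median SD over the 6 sets was 0.473 beside 0.179. These shares were not particular to cytosolic ribosomes. The F test passed for 50 of 55 mitochondrial ribosomal protein genes (90.9%), 35 of 43 translation initiation and elongation factors (81.4%) and 24 of 27 measured ribosome biogenesis genes (88.9%). All genes may include some that these embryos did not express, which ratios cannot show. The values over all genes are therefore not a background matched for expression.

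**Figure D2:**
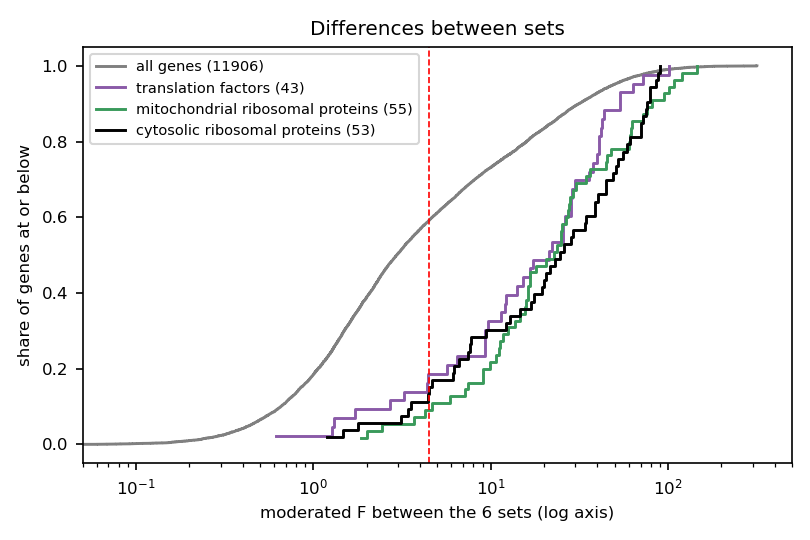
Cumulative share of genes (vertical) at or below each moderated F between the 6 sets (horizontal, log axis), for the 53 cytosolic ribosomal protein genes, 55 mitochondrial ribosomal protein genes, 43 translation factors and all 11906 genes. The red dashed line marks the smallest F with an adjusted p under 0.05. The median of the cytosolic genes is 24.6 and that of all genes 2.94, and the 3 shorter lists lie close together.

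The gene with the largest F was RPL8, a large-subunit protein close to the peptidyl transferase centre. Its ratio was -0.10, 0.15 and -1.82 in males and 0.04, 0.16 and 1.16 in females (F = 90.4, adjusted p = 3.2e-06). The sets of slides 1 and 2 were near 0, and the 2 sets of slide 3 lay on opposite sides. All 3 probes were at -1.56 or lower in male set 3, but in female set 3 they were at 2.99, 0.69 and -0.21. The positive value of RPL8 in female set 3 thus rested mainly on 1 probe.

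RPLP2 and RPLP1 form the acidic stalk of the large subunit that recruits elongation factors. RPLP2 was at -0.40, 0.13 and -2.09 in males and 0.14, 0.22 and -0.31 in females (F = 88.1). RPLP1, named after its values were seen, was at -0.26, 0.01 and -2.04 in males and 0.47, 0.69 and -0.55 in females. Both stalk genes were thus lowest in male set 3, the lowest and second lowest of all 53 genes there.

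RPL13A, a large-subunit protein that also acts in translational silencing in human monocytes, was at 0.15, 0.36 and -1.56 in males and 0.05, 0.53 and 0.30 in females (F = 85.8). RPL35, at the exit tunnel, was at -0.03, 0.71 and -1.54 in males and 0.12, 0.81 and -0.27 in females (F = 79.3). RPL35A, a protein mutated in some cases of Diamond-Blackfan anaemia, was at 0.23, 0.29 and -1.59 in males and 0.08, 0.17 and 0.34 in females (F = 75.8). For all 3 genes male set 3 was lowest, and the lowest value in any other set was -0.27. RPS19, the small-subunit protein most often mutated in that anaemia, was at 0.15, 0.43 and -1.73 in males and 0.23, 0.41 and 0.85 in females (F = 79.1). It was positive in the 5 sets other than male set 3.

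The F test was not passed by RPL5, RPL7, RPL14, RPL34, RPS6, RPS27L and RPSA. RPS6, the substrate of the S6 kinases, had the smallest F (1.20, adjusted p = 0.486) and the smallest SD, at -0.05, 0.12 and 0.13 in males and -0.14, 0.21 and -0.02 in females. RPL5, which carries the 5S ribosomal RNA and binds MDM2, was at -0.05, 0.15 and -0.06 in males and 0.20, -0.15 and 0.13 in females (F = 1.48). RPSA had an F of 1.78. RPS6, RPL5 and RPSA lay between -0.41 and 0.21 in every set.

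Male set 3 carried most of the spread. There 17 of 53 genes were past 2-fold in either direction beside 3.86% of all genes, and all 17 were below, beside 3.23%. They were RPL8, RPL10, RPL10A, RPL10L, RPL13A, RPL17, RPL35, RPL35A, RPL36, RPLP1, RPLP2, RPS18, RPS19, RPS19BP1, RPS21, RPS23 and RPS28. Not all genes of the set went that way. RPS3A, RPL4, RPL9 and RPS27, of which all but RPL4 were named after their values were seen, were at 0.83, 0.77, 0.56 and 0.56, and 13 of 53 genes were positive.

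In the other sets fewer genes were past 2-fold. There were 0 of 53 in male set 1 beside 0.21% of all genes, and 1 in male set 2, RPS21 at 1.04, beside 0.89%. Female set 1 had 0 beside 0.848%. Female set 2 had 4, beside 1.42%, which were RPS24, RPS21, RPS28 and RPL23A at 1.55, 1.43, 1.17 and 1.15. Female set 3 had 5, beside 2.66%, with RPL8, RPS24 and RPS10 above and RPL23A and RPL36 below. RPL23A, a protein at the exit tunnel, had opposite signs in female sets 2 and 3, at 1.15 and -1.08.

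The mean over the 53 genes was -0.03, 0.17 and -0.63 in male sets 1 to 3 and 0.12, 0.32 and -0.10 in female sets 1 to 3. Male set 3 was the lowest and female set 2 the highest. The mean over all genes in male set 3 was -0.05. The SD over the 53 genes within a set was 0.22, 0.27 and 0.78 in males and 0.26, 0.42 and 0.55 in females, so the 2 sets of slide 3 also had the widest scatter. Over the 6 sets the mean was -0.026 ± 0.33 (SD), with a male mean of -0.16 and a female mean of 0.11. The mean over the sets was 0.16 on the first arrays and -0.21 on the turned swap arrays, so its sign differed between the arrays of a set. The male minus female difference of -0.28 was -0.04 without male set 3, and on slide 3 alone it was -0.52.

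The 2 sets of slide 3 did not share 1 pattern among these genes. Their ratios correlated at r = -0.02 over the 53 genes, beside 0.15 over all genes. By gene means RPL8, RPS19 and RPS10 lay below 0 in male set 3 and above in female set 3, whereas RPS3A and RPS27 lay the other way. The gene mean of RPL36, at -1.83 and -1.04, was low in both. In female set 3, however, the RPS3A probes ran from -1.01 to 0.59, and those of RPL36 were at -2.07 and 0.0012. The most alike pair was male set 2 and female set 2, which lay on different slides, with r = 0.60 over the 53 genes and 0.53 over all genes. The other 13 pairs had r between -0.34 and 0.30 over the 53 genes. These correlations describe genes within the same arrays and carry no test.

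**Figure D3:**
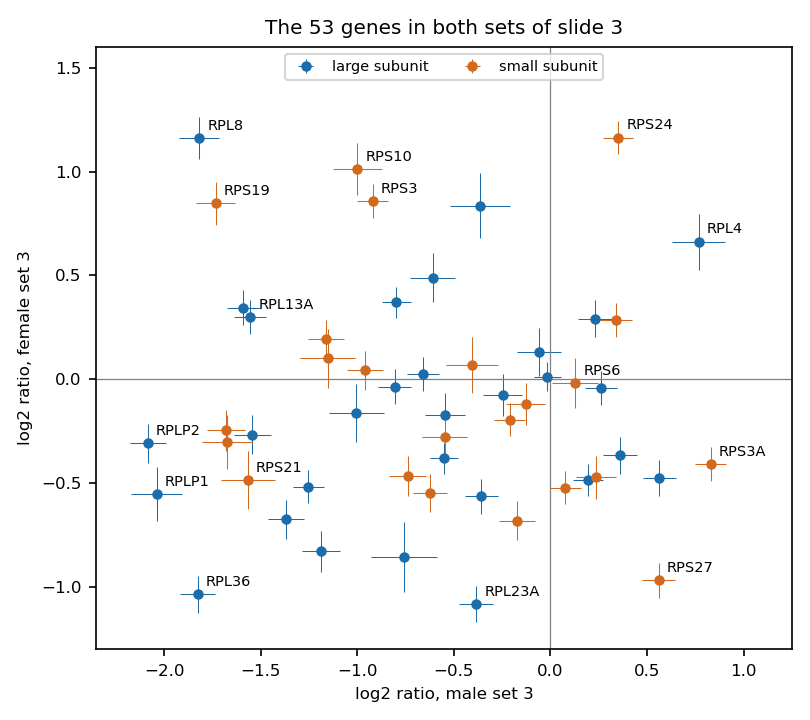
Log2 ratio of each of the 53 genes in male set 3 (horizontal) and female set 3 (vertical), large subunit in blue and small subunit in orange. Bars are 1 standard error from the fit over both arrays of a set, with a term for array role. Points fill all 4 quadrants, with RPL8 at -1.82 and 1.16, RPL36 at -1.83 and -1.04 and RPS27 at 0.56 and -0.97.

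Differences between the sets of a slide, added after the data were seen, do not run across slides. Each sets 1 comparison of pools against 1 other, so they carry no test. On slide 1, 39 of 53 genes (73.6%) were lower in male set 1 than in male set 2, beside 50.4% of all genes, with a median difference of -0.22. The largest were those of RPS27A, RPS21 and RPL36AL, each at -0.78. On slide 2, 34 genes (64.2%) were lower in female set 1 than in female set 2, beside 54.3% of all genes. RPS24 differed by -1.69 and RPS21 by -1.37, and the most positive differences were 0.59 for RPL10L and 0.57 for RPL10. On slide 3, 38 genes (71.7%) were lower in male set 3 than in female set 3, beside 50.4% of all genes. RPL8 led with a difference of -2.98, followed by RPS19 with -2.58 and RPS10 with -2.01, and on the positive side RPS27 with 1.53, RPS3A with 1.24 and RPL9 with 1.04.

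Large- and small-subunit means varied alike from set to set, with both lowest in male set 3 and highest in female set 2. The mean of the large-subunit genes was -0.03, 0.11 and -0.70 in males and 0.10, 0.25 and -0.14 in females. The mean of the small-subunit genes was -0.04, 0.24 and -0.53 in males and 0.14, 0.41 and -0.05 in females. Large minus small was 0.0022, -0.13 and -0.17 in males and -0.04, -0.16 and -0.09 in females. The mean difference was -0.10 ± 0.068 (SD, n = 6 sets), and it was negative in 5 of 6 sets.

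That difference depended on the array within a set. On the first arrays large minus small was between -0.31 and -0.17 in all 6 sets, with a mean of -0.24. On the turned swap arrays it was between -0.04 and 0.17, with a mean of 0.05 and a positive sign in 5 of 6 sets. The small-subunit mean was higher on the first array than on the turned swap array of each set. In male set 1 the small-subunit mean was 0.26 on the first array and -0.33 on the turned swap array.

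**Figure D4:**
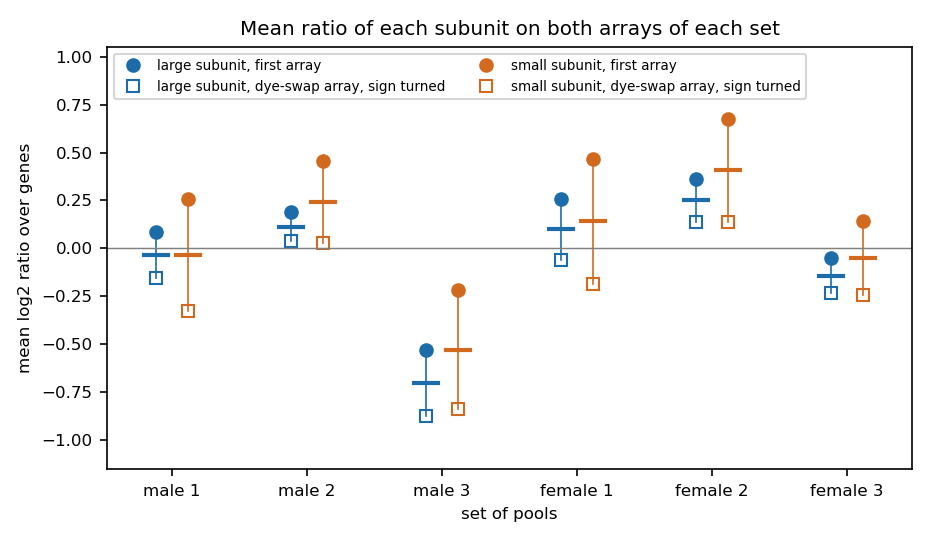
Mean log2 ratio of the 30 large-subunit genes (blue) and 23 small-subunit genes (orange) on the first array (filled circles) and the sign-turned dye-swap array (open squares) of each of the 6 sets. Horizontal bars are the mean of both arrays, and the line joins them. The first array is above the turned swap array in every set for both subunits, and male set 3 is lowest.

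Many of the genes thus had a part of the ratio that did not turn with the dye swap, taken as (first array minus turned swap array)/2 and averaged over sets. A comparison of this part with 0, added after the data were seen, passed an adjusted p of 0.05 for 32 of 53 genes beside 39.7% of all genes, and 29 of the 32 were positive. Its median was 0.13 over the 53 genes and 0.01 over all genes. By subunit, 17 of 23 small-subunit and 15 of 30 large-subunit genes passed, with medians of 0.29 and 0.06. It was highest in RPS6, at 0.81 ± 0.14 (SD, n = 6 sets, adjusted p = 1.67e-05), which was between 0.54 and 0.99 on all first arrays and between -1.13 and -0.54 on all turned swap arrays. RPS6 was thus the gene with the smallest difference between sets and the largest difference between the arrays of a set. RPL10, RPSA, RPL4, RPS18, RPS10 and RPS12 followed, at 0.53 to 0.57. Of the 32 genes only RPS19BP1, RPL10L and RPL17 were negative, at -0.21, -0.18 and -0.10. What this part reflects was not tested.

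The agreement of the 2 arrays of a set varied in the same way. Over the 53 genes, first and turned swap array correlated at -0.10, 0.11 and 0.80 in male sets 1 to 3 and at -0.24, 0.59 and 0.87 in female sets 1 to 3. Over all genes these values were 0.13, 0.38 and 0.71 in males and 0.23, 0.50 and 0.76 in females. Male set 3 had 44 of the 53 genes with 1 sign on both arrays, and female set 1 had the fewest, at 19. The count for female set 3 was 39, close to the 38 of female set 2. The correlations were thus highest on slide 3, whose sets also had the widest scatter over the 53 genes. A correlation rises with such scatter, so these values do not show that single ratios were more repeatable there.

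Where a gene had several probes, their ratios mostly varied alike over the sets. Of 22 such genes, RPL13A had the widest range of probe means for both sexes, from -0.40 to 0.52 over its 6 probes. These probes ran from -2.1 to -0.59 in male set 3 and from -1.04 to 1.77 in female set 3. The 2 probes of RPL36 had means of -0.88 and -0.21. They were both low in male set 3, at -2.12 and -1.54, but differed in female set 3, at -2.07 and 0.0012. Those of RPL8 ranged from -0.27 to 0.13. The median correlation between probes over the 6 sets was below 0.5 only in RPL7L1, RPL7 and RPS6, at -0.35, -0.06 and 0.08. Ribosomal protein genes have many processed pseudogenes, and probes that bind such copies cannot be told apart here.

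**Figure D5:**
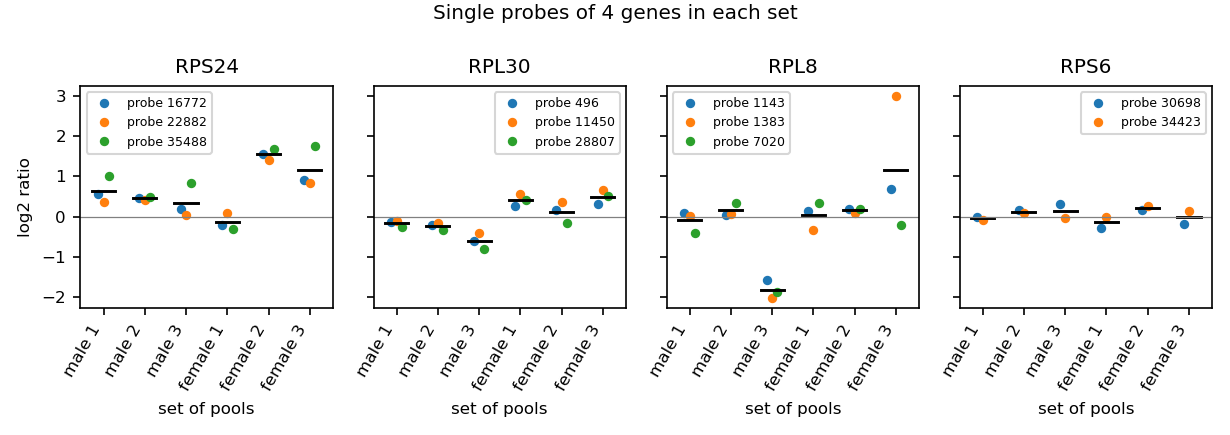
Log2 ratio of each probe (points) and the gene mean (bars) of RPS24, RPL30, RPL8 and RPS6 in the 6 sets. The probes of RPL30 are all negative in the 3 male sets, those of RPL8 lie together at about the gene mean of -1.82 in male set 3 and apart, from -0.21 to 2.99, in female set 3, and those of RPS6 stay close to 0.

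Genes that work beside the cytosolic ribosomal proteins were set against them in male set 3, where the family was low. The 55 mitochondrial ribosomal protein genes had a mean of -0.57 there, beside -0.63 for the cytosolic genes. FAU, a further small-subunit protein outside the symbol rule, was at -1.36. The 43 translation factors were at 0.03, the 27 of 36 listed ribosome biogenesis genes at 0.09, and the 22 of 28 listed other terminal oligopyrimidine genes and their regulators at 0.14. Both ribosomal protein families were thus low in that set, while the means of the other 3 lists were at or above 0.03. These are descriptions of 1 set of pools.

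None of those lists held a gene that passed the adjusted test between FE and SE for both sexes. At an unadjusted p under 0.05, 5.06% of all genes passed, and 252 of those 602 genes were positive. Of the mitochondrial ribosomal protein genes 8 of 55 passed, of which 2 were positive. Of the biogenesis genes 4 of 27 passed, of which 2 were positive. The counts were 1 of 22 terminal oligopyrimidine genes and 1 of 43 translation factors. In biogenesis, TCOF1, a nucleolar factor of ribosomal RNA transcription, had a mean of 0.65 (adjusted p = 0.768) and PNO1, a small-subunit assembly factor, one of -0.31. The largest F there belonged to the nucleolar proteins NCL (73.5) and NPM1 (71.4). MRPS10 and MRPL43 had means of -0.25 and -0.29, and the largest F among mitochondrial genes were those of MRPS34 (145) and MRPL24 (120). TPT1, a terminal oligopyrimidine growth protein, had a mean of 0.39, EEF1E1, a component of the multi-synthetase complex, one of -0.52, and the cap-binding EIF4E one of -0.22. EEF1D and LARP4 (64.6) had the largest F among the terminal oligopyrimidine genes and regulators. EEF1D and EIF3I had the largest F among the translation factors, 102 and 71.9, and EEF1D was at -1.62 in male set 3. Free ribosomal proteins bind MDM2 and raise p53. Of 3 measured p53 genes MDM4 and CDKN1A had means of 0.15 and 0.11, and MDM2 one of -0.0012. In male set 3 MDM2 was at 0.85, MDM4 at 0.25 and CDKN1A at -0.01. MDM2 had an F of 34.3, whereas MDM4 (F = 1.71) and CDKN1A (F = 1.18) did not pass the F test.

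Markers of the embryo's cell types and of neighbouring tissue also differed between sets. The mean of 14 of 15 trophectoderm markers, the outer layer that forms the placenta, was 0.14, 0.21 and -0.57 in male sets and 0.30, 0.38 and -0.28 in female sets, with 4 of 14 positive in male set 3. It was thus lowest where the ribosomal protein mean was lowest, but so was the mean of each further list below. The median of the trophectoderm markers in male set 3 was -0.17, with KRT19 at -2.55, PTGES at -1.32 and GATA3 at 0.12. The mean of 7 of 10 genes of conceptus elongation was 1.19, -0.44 and -2.15 in males and -0.57, 0.86 and -1.56 in females. It was low in both sets of slide 3, as with IFNG at -4.44 and IL1B at -2.66 in male set 3. In male set 3 the mean was -0.22 for 10 of 13 epiblast markers, -0.22 for 11 of 15 hypoblast markers, -0.35 for 9 of 10 uterine epithelium markers and -0.05 for 7 of 11 blood markers. In the other 5 sets epiblast means ran from -0.09 to 0.21, hypoblast means from -0.09 to 0.32, uterine means from -0.20 to 0.44 and blood means from -0.00082 to 0.07. Which of these markers were present at all cannot be read from ratios, and the part of cell type, growth stage or slide in the ribosomal protein values was not tested.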

How the data were processed

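Each probe has 1 log ratio made by the authors for each two-colour Agilent array, and these deposited values were read as log2 from their range. Per the labels' protocols, RNA was amplified to antisense RNA and labelled chemically with 2 dyes. How arrays were scanned, corrected and normalized, and the genome build, is not given in the sources used here. Array medians lay between -0.0012 and 0.0108, and intensities were not analysed here, so depth or signal over background is unknown and the number of arrays limits precision.

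Of 43794 probes, 25 with a missing value were left out. The platform's gene table named 18110 of the remaining probes, none with several symbols. In all, 228 symbols were updated from pig RefSeq names, and an update of 1 other symbol into a member symbol was not made. The other 25659 probes stayed unnamed. Probes were averaged per gene, swap arrays were turned, and both arrays of a set were averaged into 1 replicate. limma 3.58.1 in R 4.3.3 (lmFit, eBayes) fitted 1 mean per sex over 6 sets to all 11906 genes, with Benjamini-Hochberg adjustment over all genes. The F test between sets used all 12 arrays with a term for array role. The scripts were tested on simulated data. Labels do not state separate hybridisation batches. The p-values measure the spread between sets, or, for the F test, that between the arrays of a set after the term for array role.

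Named genes were the 5 of smallest p in each of 4 contrasts, the 6 of largest and 3 of smallest F, the 3 of smallest SD and the 3 whose probes differed most. From each list of ribosome-related genes, the 2 of smallest p and 2 of largest F were named. Members and lists were chosen with earlier results of these data known. The comparison of the part that does not turn with the swap, the differences within slides, and the fits without slide 3 or without the 6 like or binding genes were added after seeing the data.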

Additional observations from a re-analysis of the deposited data

Results flagged for a closer look

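Over 24 measures examined, which were the named genes and the means of the family and its subunits, 5 genes had male set 3 apart from the other 5 sets, with a gap to the nearest of them that exceeded Dixon's 95% limit as a share of the whole range. RPL35A was at -1.59 there and between 0.08 and 0.34 in the other sets. RPL13A was at -1.56, with the others between 0.05 and 0.53. These are means over probes, which for RPL13A ran from -1.04 to 1.77 in female set 3, though each was lowest in male set 3. RPS19 was at -1.73 beside 0.15 to 0.85, RPLP2 at -2.09 beside -0.40 to 0.22, and RPL14 at -0.55 beside -0.21 to -0.02. Chance marks about 1 in 20 groups of values not chosen for their spread. That rate does not hold here, since all but RPL14 were named for a large F between sets, and the 5 genes share the same arrays. No other set stood apart in any of the 24 measures.

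As a mean of both arrays, the ratio differed in sign between the sexes in every set for RPL30 and RPS10. The male minus female difference was -0.67 for RPL30 and -0.89 for RPS10. On single arrays the signs were not kept. RPS10 was at 0.45 and 0.33 on the first arrays of male sets 1 and 2. On the turned swap arrays of female sets 1 and 2 it was at -0.26 and -0.54. RPL30 was at 0.01 on the first array of male set 1 and at -0.06 on the turned swap array of female set 1. Neither difference passed the limma test after adjustment (adjusted p = 0.999 for both). Every male set lay below every female set in these 2 of 53 genes, beside 3.54% of all genes. RPS10 was close to 0 in male set 2, at -0.0044, and in female set 2, at 0.06.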

How the results depend on the processing

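The relative direction of the swap arrays mattered most. With swap arrays not turned, 30 ribosomal protein genes passed for both sexes (38.2% of all genes), 26 for males (19.6%) and 23 for females (14.7%) in place of 0, and the F test between sets passed for 0 in place of 46. Signs then changed for RPL14 (0.062) in both sexes, for RPL30 (0.18), RPSA (0.58), RPS23 (0.26), RPL14 (0.033) and RPL36 (0.019) in males and for RPS29 (0.14) in females. The male minus female differences became -0.030 for RPS29, 0.0094 for RPS10, 0.0074 for RPS28 and 0.14 for RPS23. First arrays only gave 1 gene for both sexes, beside 0.042% of all genes. That gene was RPS6, which also had the largest part that did not turn with the swap. First arrays only also gave a male RPSA mean of 0.36 and a large minus small difference of -0.24. Turned swap arrays only gave 0.047 for that difference, and RPL4 means of -0.17 in both sexes and -0.053 in females. The cause was not tested. The F test passed for 27 genes with no term for array role (23.5% of all genes), and for 19 (16.4% of all genes) without slide 3. Over fits that leave out 1 set it passed for 35 to 47 genes, 35 (32% of all genes) without male set 3. The counts for FE against SE in both sexes, each sex and between the sexes stayed at 0 when each set was left out. In those fits the mean over the 53 genes ranged from -0.11 to 0.09 and was 0.16 on first arrays only, -0.21 on turned swap arrays only and 0.18 with swap arrays not turned, so its sign is not stable. Its male minus female difference ranged from -0.44 to -0.04 and was 0.0051 with swap arrays not turned, and large minus small ranged from -0.12 to -0.08. Paired by set number, a replicate block gave 0 genes for both sexes and 0 for the sex difference, left the difference of the mean at -0.28 and changed no call. Over all genes the ratios of male and female sets of the same number correlated at 0.05, 0.53 and 0.15. Male and female sets of different numbers correlated at -0.19 to 0.23. Among female sets, male sets 2 and 3 correlated best with that of their own number, but male set 1 with female set 2. The numbers were therefore not taken to pair the sets, though the labels do not say which sows the sets of 1 number share. Scaling of the arrays, the median over probes, robust eBayes and single probes changed no count by more than 1.5 times. Signal over background is unknown.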
